A study of Saccharomyces cerevisiae with 4 samples.

Results

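The small subunit of the cytosolic ribosome, the 40S subunit, was followed through the transcripts of its protein genes in budding yeast. Members were the genes whose annotated symbol on the array was RPS, a number and, for duplicated genes, the copy letter A or B. The rule found 65 probe sets of 52 genes among the 5449 Saccharomyces cerevisiae genes measured, and the brightest probe set stood for a gene. The 52 genes encode 31 proteins: 7 are single-copy genes, 42 form 21 pairs with both copies measured, and 3 (RPS4B, RPS6B and RPS30A) are named copies whose partner had no probe set named for it. Of the 56 such symbols in the RefSeq gene table, 4 were not analysed here. All 52 members lay above background on all 4 arrays, beside 97.4% to 99.4% of all genes tested by array.

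Allyl alcohol samples were cultures of the haploid strain W1588-4c given 0.4 mM allyl alcohol for 3 h, and untreated samples were cultures of the same strain given none, with 2 Affymetrix arrays in each group. Per the labels all cultures were of mating type MATa and carried the adenine allele ade2-1, the transport allele can1-100, the histidine allele his3-11,15, the leucine allele leu2-3, 112, the tryptophan allele trp1-1, the uracil allele ura3-1 and RAD5+. They were kept at 30 °C in synthetic complete medium (2% glucose) until the optical density was close to 1. A growth time matched to the exposure is not stated for untreated cultures in the sources used here, so growth time and treatment cannot be told apart. The labels call the replicates independent experiments. As a check of the mating type, 7 of 7 fixed type a markers were above background on all 4 arrays. So were 4 of 4 type alpha markers. By array, 97.4% to 99.4% of all genes tested lay above background, so this check did not tell the types apart. The markers differed between arrays of the same label. For replicate 1 minus replicate 2, type a markers had median log2 differences of -2.07 in allyl alcohol and 2.12 in untreated samples. Type alpha markers had 0.82 and -0.68.

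The small subunit binds the messenger RNA and reads its codons, and its proteins surround the 18S ribosomal RNA in a head, a body and a platform. Yeast has kept 2 genes for most of these proteins since an ancient genome duplication. The genes are transcribed as one coordinated block, through Rap1, Fhl1, Ifh1 and Sfp1 at their promoters, and the block is known to be shut down when growth stops or stress signals reach the Tor and protein kinase A pathways. Allyl alcohol is oxidised by alcohol dehydrogenases to acrolein, an aldehyde that attacks thiols.

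The arrays went against their labels. Pearson's r over the 5449 genes was 0.740 between the arrays labelled allyl alcohol and 0.757 between those labelled untreated (a correlation across genes, which do not count as replicates). It was 0.991 between allyl alcohol replicate 1 and untreated replicate 2, and 0.996 between allyl alcohol replicate 2 and untreated replicate 1. The labels of an allyl alcohol and an untreated sample may thus have been exchanged, which was not tested and which the files cannot settle. Every difference, interval and p between labels below holds only for the labels as deposited. Arrays are therefore named by their labels, and each result is given for single arrays as well as for the group means. Signals are RMA values on a log2 scale, where 1 unit is a 2-fold change. Levels of different probe sets cannot be compared as amounts of RNA, because probes differ in brightness, so changes are read between arrays for the same probe set. Spreads over members, closeness to the top of the scale and differences between copies A and B describe signal alone.

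The members' signals split the arrays across the labels. The median log2 signal of the 52 genes was 12.40 on allyl alcohol replicate 1 and 13.71 on allyl alcohol replicate 2, against 13.74 on untreated replicate 1 and 11.93 on untreated replicate 2. Each group therefore joined a high and a low array. In such bulk cultures, fewer cells of a kind and less RNA per cell cannot be told apart. In 51 of the 52 genes the highest signals were those of allyl alcohol replicate 2 and untreated replicate 1, a pattern that 44.7% of all genes tested had. The exception was RPS30A. On the high arrays the members lay close together, from 12.20 to 14.19 on allyl alcohol replicate 2 and from 11.77 to 14.21 on untreated replicate 1. On the low arrays they spread from 9.44 to 13.79 on allyl alcohol replicate 1 and from 9.54 to 13.73 on untreated replicate 2.

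**Figure D1:**
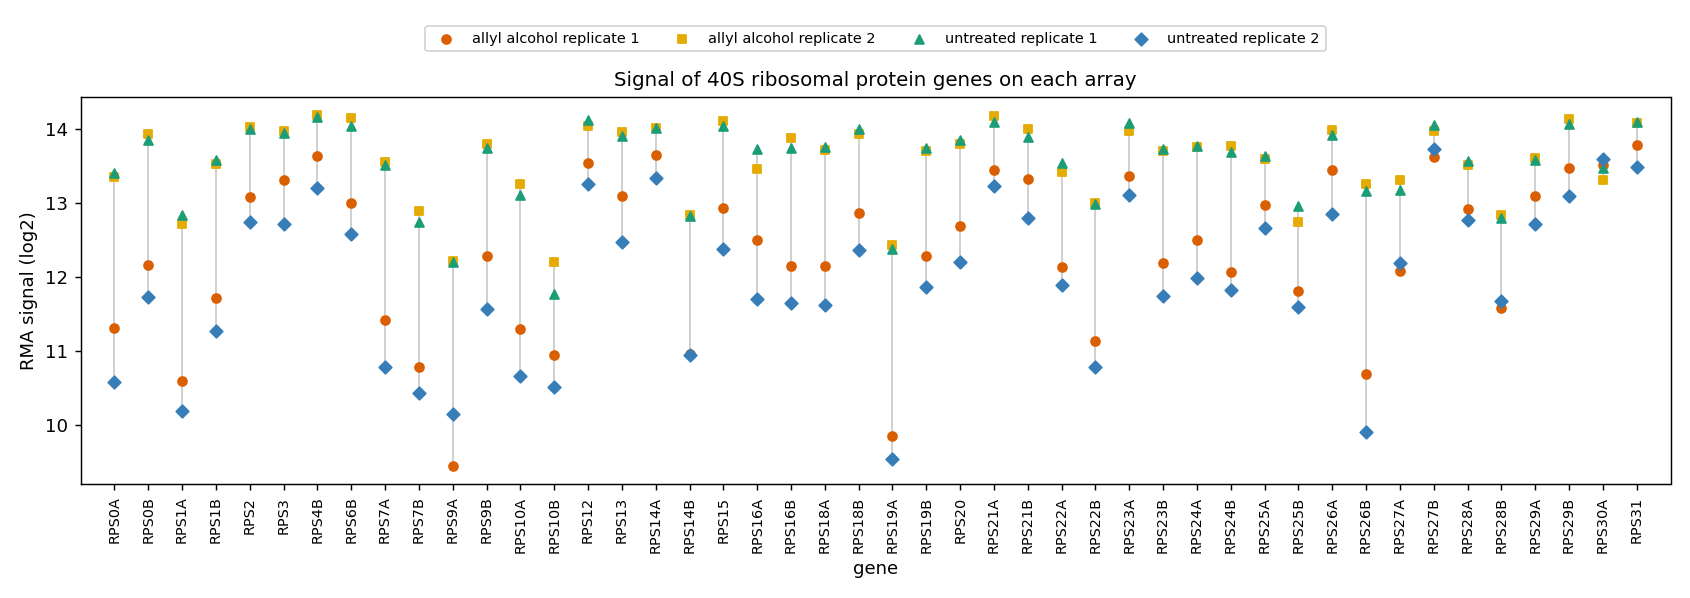
Log2 RMA signal (vertical axis) of 46 of the 52 small-subunit protein genes (horizontal axis) on the 4 arrays, 1 point for each array, joined by a grey line over the gene's range. Allyl alcohol replicate 2 and untreated replicate 1 lie above the other arrays in every gene drawn except RPS30A.

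By the labels, no member passed the test of allyl alcohol against untreated. Limma called 0 of the 52 members at a Benjamini-Hochberg adjusted p of 0.05, beside 0% of all genes, and each member's adjusted p was 1. At an unadjusted p under 0.05, 0 members and 0% of all genes passed, and the smallest unadjusted p among members was 0.569, for RPS26A. The groups overlapped in all 52 members. Over all genes they did not overlap in 5.23%, made up of 1.89% higher and 3.34% lower in allyl alcohol. No member had an absolute difference of 1 log2 unit or more, beside 0.0184% of all genes. The median log2 difference of the members, allyl alcohol minus untreated, was 0.20, against -0.02 over all genes tested, and single members lay between -0.35 and 0.44. The difference was positive in 47 members and negative in 5 (RPS9A, RPS25B, RPS27B, RPS28B and RPS30A), where 42% of all genes had a positive one. The median standard error of a member's difference was 0.79, against 0.51 over all genes. The 95% interval reached a median of 2.26 to either side. With 2 arrays in each group, the smallest two-sided p that exact permutation can reach is 0.333.

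**Figure D2:**
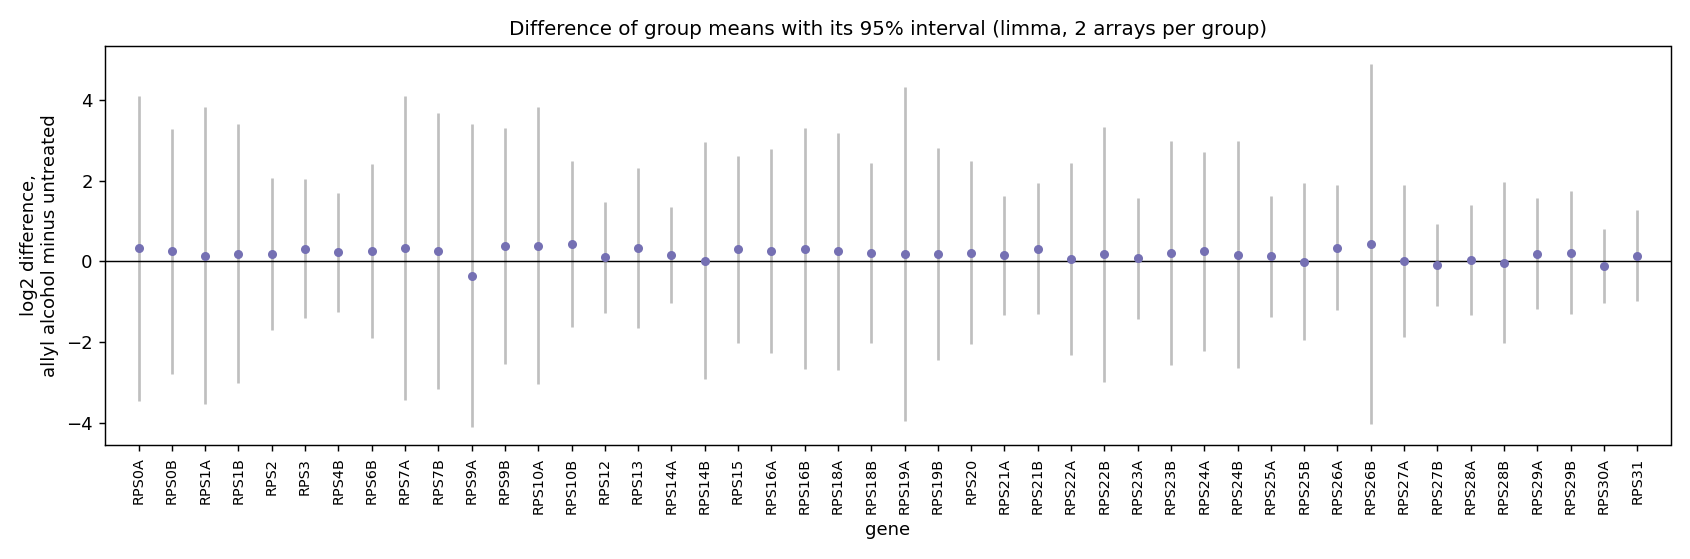
Log2 difference of group means, allyl alcohol minus untreated (vertical axis), for 46 of the 52 members, with points at the estimate and bars for the 95% interval from limma (2 arrays per group). All intervals drawn cover 0, and the points lie between -0.35 and 0.44.

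The small positive median was seen in 1 of the 2 closest pairs of arrays. Between allyl alcohol replicate 1 and untreated replicate 2, the members' median difference was 0.41, and 47 of 52 were positive, beside 43.2% of all genes. Between allyl alcohol replicate 2 and untreated replicate 1 it was 0.01, and 29 of 52 were positive, beside 46.9% of all genes. No member was 2-fold apart in either pair, beside 0.147% and 0.275% of all genes. These pairs were singled out after the values were seen and compare single arrays, so they carry no test. By replicate number instead, the median was -1.17 between allyl alcohol and untreated replicate 1, where 32 members were at least 2-fold lower, beside 18.8% of all genes. It was 1.58 between allyl alcohol and untreated replicate 2, where 40 were at least 2-fold higher, beside 18.3% of all genes. Over all 5449 genes these 4 medians lay between -0.04 and -0.01.

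RPS26B and RPS10B were among the members with the largest positive differences. RPS26B, a copy of the gene for a protein at the mRNA exit channel, had log2 signals of 10.68 and 13.26 on the allyl alcohol arrays (replicates 1 and 2), against 13.16 and 9.91 on the untreated arrays (replicates 1 and 2). Its mean was 11.97 ± 1.82 in allyl alcohol and 11.53 ± 2.30 in untreated samples (SD, n = 2 each), a difference of 0.44 with a standard error of 1.56. Its spread between arrays of the same label was thus several times its difference between labels. RPS10B, for a head protein beside the mRNA entry, had 10.95 and 12.20 on the allyl alcohol arrays, against 11.77 and 10.52 on the untreated arrays (replicates 1 and 2 in both). Its difference was 0.43 (standard error 0.72), and both close pairs of arrays gave 0.43. These values are from a probe set with some probes that match other sequences. The other set of RPS10B, which is not of this type, had 10.78 and 12.11 in allyl alcohol, against 12.01 and 10.27 in untreated samples. Its difference was 0.30, and by this set the 2 close pairs did not give equal values.

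The largest negative differences were those of RPS9A, RPS30A and RPS27B. RPS9A, a copy of the gene for a protein that affects the accuracy of decoding, had 9.44 and 12.21 on allyl alcohol replicates 1 and 2, against 12.21 and 10.14 on untreated replicates 1 and 2. Its difference was -0.35 with a standard error of 1.31. It was the member with the lowest value in the pair of low arrays, -0.70 between allyl alcohol replicate 1 and untreated replicate 2, and had 0.00408 in the pair of high arrays. RPS30A, for a small basic protein near the decoding site, had 13.51 and 13.31 on the allyl alcohol arrays, against 13.47 and 13.59 on the untreated arrays (replicates 1 and 2 in both). Its difference was -0.12 (standard error 0.32), and its signals stood within 0.28 log2 units of each other on all 4 arrays. RPS27B, for a zinc-binding protein of the body, had 13.63 and 13.98 in allyl alcohol, against 14.05 and 13.73 in untreated samples, with a difference of -0.09 (standard error 0.36).

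Between arrays of the same label the members differed strongly, and in opposite order of replicate number in the 2 labels. The median log2 difference, replicate 1 minus replicate 2, was -1.20 in allyl alcohol and 1.64 in untreated samples, against -0.0011 and -0.035 over all genes. At least 2-fold lower on allyl alcohol replicate 1 than on replicate 2 were 31 of the 52, beside 19.3% of all genes, and none was 2-fold higher, beside 21.5%. In untreated samples 39 were at least 2-fold higher on replicate 1, beside 17.6%, and none was 2-fold lower, beside 20.4%. Both held for 30 members, beside 15.8% of all genes. These are differences between single arrays and carry no test.

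**Figure D3:**
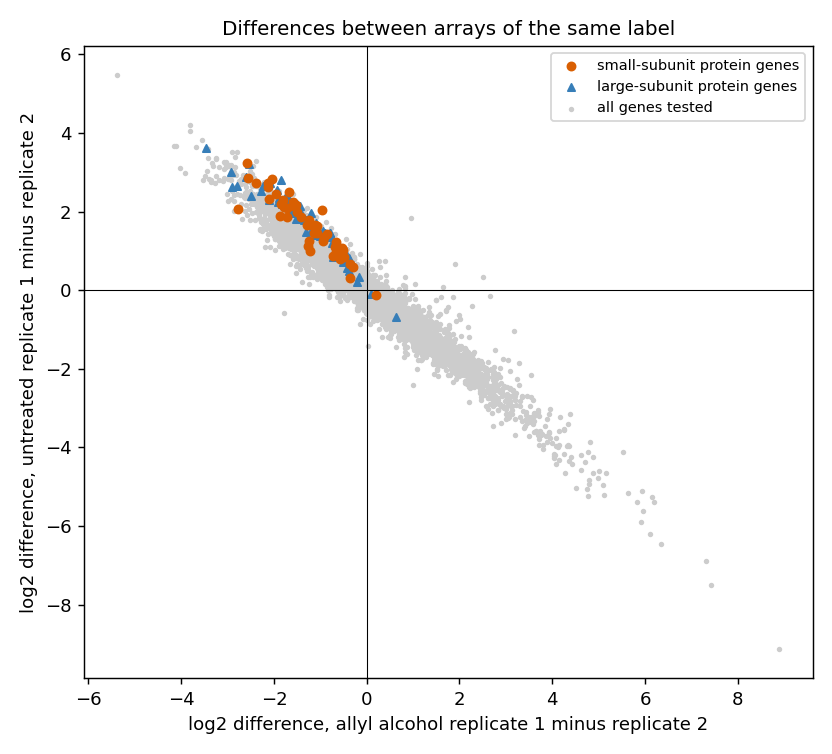
Log2 difference between replicates 1 and 2 in allyl alcohol (horizontal axis) and in untreated samples (vertical axis), 1 point for each gene, with small-subunit protein genes in orange, large-subunit protein genes in blue and all genes tested in grey. The small-subunit genes lie at negative values in allyl alcohol and positive values in untreated samples, with medians of -1.20 and 1.64, except RPS30A.

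By their brightest sets, members fell into 4 ranges of this difference. The first 2 ranges together are the 30 members at least 2-fold apart in both labels, beside 15.8% of all genes. Shares of all genes were not counted for the single ranges, which therefore only describe the members. At least 4-fold in both labels were 8, among them RPS0A, RPS1A, RPS7A, RPS7B, RPS9A, RPS19A and RPS26B. Between 2-fold and 4-fold in at least 1 label, and at least 2-fold in both, were 22, among them RPS0B, RPS1B, RPS6B, RPS9B, RPS10A, RPS10B, RPS14B, RPS15, RPS16B, RPS18A, RPS18B, RPS19B, RPS20, RPS22A, RPS22B, RPS23B, RPS24A, RPS24B and RPS28B. At least 2-fold in 1 label were 10, among them RPS2, RPS3, RPS13, RPS16A, RPS21B, RPS25B, RPS26A and RPS27A. Under 2-fold in both were 12: RPS4B, RPS12, RPS14A, RPS21A, RPS23A, RPS25A, RPS27B, RPS28A, RPS29A, RPS29B, RPS30A and RPS31. The range can depend on the probe set. RPS23A was read by a set of a type shared by several genes, and its other set gave -1.86 in allyl alcohol and 2.52 in untreated samples.

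By the mean of the absolute differences in both labels, RPS26B and RPS19A moved most between arrays of the same label. Between the allyl alcohol arrays alone RPS9A differed more, by 6.82-fold. RPS26B differed 5.94-fold between the allyl alcohol arrays and 9.50-fold between the untreated arrays. RPS19A, a copy of the gene for a head protein needed for the maturation of 18S rRNA, had 9.86 and 12.43 in allyl alcohol, against 12.38 and 9.54 in untreated samples (replicates 1 and 2 in both). That is 5.94-fold and 7.19-fold. In both genes the arrays labelled allyl alcohol replicate 1 and untreated replicate 2 were the low ones.

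By the same mean, the 3 that moved least were RPS30A, RPS27B and RPS31. RPS30A differed 1.15-fold between the allyl alcohol arrays and 1.08-fold between the untreated arrays, and was the member with the higher signal on allyl alcohol replicate 1 than on replicate 2. RPS27B differed 1.28-fold and 1.25-fold. RPS31, whose product is made as a fusion to ubiquitin and so supplies ubiquitin as well as a head protein, had 13.79 and 14.07 on the allyl alcohol arrays, against 14.09 and 13.49 on the untreated arrays, or 1.22-fold and 1.51-fold. The probe set of RPS30A is of a type shared by several genes, while those of RPS27B and RPS31 are not. Brighter members moved less. Over all members, the rank correlation (Spearman) of mean signal with this mean difference was -0.82. With the signal on the 2 high arrays alone it was -0.52. The part of brightness in the small movement of these 3 was not tested.

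On the high arrays many members lay close to the top of the scale. Within 1 log2 unit of the brightest gene tested were 29 members on allyl alcohol replicate 2 and 1 on allyl alcohol replicate 1, against 30 on untreated replicate 1 and 0 on untreated replicate 2. The share of all genes tested that lay so close to the top was not counted, so these counts do not set the members apart. The part of this in the size of the members' differences was not tested.

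The 7 single-copy genes encode proteins at the entry of the mRNA channel (RPS2 and RPS3), in the head (RPS12, RPS15, RPS20 and RPS31) and in the body (RPS13). Their median difference was 0.22 between labels, with all 7 positive from 0.10 to 0.34, beside 42% of all genes positive. RPS3, for a protein that holds the mRNA in the entry channel, had 13.31 and 13.98 on allyl alcohol replicates 1 and 2, against 13.95 and 12.71 on untreated replicates 1 and 2. Its mean was 13.64 ± 0.47 in allyl alcohol and 13.33 ± 0.87 in untreated samples (SD, n = 2 each), with a difference of 0.31 (standard error 0.60). Between arrays of the same label the single-copy genes had medians of -0.86 in allyl alcohol and 1.26 in untreated samples, and 2 of 7 (RPS15 and RPS20) were at least 2-fold apart in both. The 45 copies of duplicated genes had -1.26 and 1.78, with 28 of 45 at least 2-fold apart in both. Over all genes the share was 15.8%. The sets of the single-copy genes were also brighter on the high arrays. Their median signals were 14.03 on allyl alcohol replicate 2 and 14.00 on untreated replicate 1, against 13.60 and 13.68 for the copies. The part of brightness or of copy number in these values was not tested.

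Proteins of the head and of the rest of the subunit had like values. The 21 head genes had a median difference of 0.21 between labels, and the 31 body and platform genes had 0.19. Inside the labels the head genes had medians of -1.07 in allyl alcohol and 1.46 in untreated samples, with 12 of 21 at least 2-fold apart in both. The body and platform genes had -1.28 and 1.78, with 18 of 31. Over all genes the share was 15.8%. The 23 genes of proteins that bacterial ribosomes also have differed by a median of 0.21 between labels, and the 29 genes of proteins without a bacterial counterpart by 0.18.

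Paralogs did not keep a constant ratio over the arrays. Among the 13 pairs in which both copies were read by a plain probe set (ID ending in _at), copy A minus copy B varied most for RPS26, RPS14 and RPS9. RPS26A had 13.45 and 13.99 on allyl alcohol replicates 1 and 2, against 13.92 and 12.84 on untreated replicates 1 and 2. With the RPS26B values given above, A minus B was 2.76 and 0.73 on the allyl alcohol arrays and 0.76 and 2.93 on the untreated arrays. Copy B was therefore the one that changed more between arrays of the same label, by a mean absolute log2 difference of 2.91, against 0.81 for copy A. Copy B also had the dimmer set. In 11 of these 13 pairs, and in 17 of all 21 by the brightest sets, the copy with the lower mean signal changed more. A larger fall on the low arrays itself lowers that mean. The part of probe brightness in the changes of ratio was not tested.

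The RPS14 pair encodes a platform protein, and in yeast this protein binds the RNA of RPS14B and holds back its expression. RPS14A had 13.65 and 14.01 in allyl alcohol, against 14.01 and 13.33 in untreated samples (replicates 1 and 2 in both). RPS14B had 10.96 and 12.84, against 12.82 and 10.94. A minus B was thus higher on the low arrays, at 2.69 and 1.17 in allyl alcohol and at 1.19 and 2.40 in untreated samples. The means of both copies were close in the 2 labels: 13.83 ± 0.25 and 13.67 ± 0.48 for RPS14A, and 11.90 ± 1.33 and 11.88 ± 1.33 for RPS14B, allyl alcohol and untreated in turn (SD, n = 2 each).

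The RPS9 pair behaved in another way, since 1 array stood apart. RPS9B had 12.28 and 13.79 on allyl alcohol replicates 1 and 2, against 13.74 and 11.57 on untreated replicates 1 and 2. A minus B was -2.83 and -1.58 in allyl alcohol, against -1.53 and -1.43 in untreated samples, so the value of allyl alcohol replicate 1 lay apart from those of the other arrays. RPS9B had a difference of 0.38 (standard error 1.02) between labels where RPS9A had -0.35. The difference of the group means of A minus B was -0.73, the largest in size of the 21 pairs. The others lay between -0.17 and 0.14 with plain sets. The RPS9 value rests on 1 array and has no replicate.

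RPS21, RPS1 and RPS7 kept their ratio more closely, with ranges of 0.31, 0.38 and 0.43 log2 units over the 4 arrays. RPS21A had 13.45 and 14.17 on allyl alcohol replicates 1 and 2, against 14.09 and 13.23 on untreated replicates 1 and 2, and RPS21B had 13.32 and 14.00, against 13.89 and 12.80. RPS1A, for a large protein near the mRNA exit, had 10.59 and 12.72, against 12.83 and 10.19, and RPS1B had 11.72 and 13.53, against 13.58 and 11.28. RPS7A had 11.41 and 13.55, against 13.52 and 10.78, and RPS7B had 10.78 and 12.90, against 12.74 and 10.43. Copies of RPS1 and RPS7 thus moved together over several-fold differences, and copies of RPS21 over smaller ones.

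RPS22 lay between these. RPS22A had 12.13 and 13.41 in allyl alcohol, against 13.54 and 11.89 in untreated samples, and RPS22B had 11.14 and 12.99, against 12.99 and 10.78 (replicates 1 and 2 in both). A minus B was 0.99 and 0.42 on the allyl alcohol arrays and 0.55 and 1.10 on the untreated arrays.

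By plain sets, several other pairs also changed their ratio with the array more than with the label. RPS27A minus RPS27B was -1.55 and -0.67 on allyl alcohol replicates 1 and 2, against -0.87 and -1.54 on untreated replicates 1 and 2. RPS28, for a small protein at the head, had 1.34 and 0.67, against 0.76 and 1.10, and RPS25, a head protein used by viral internal ribosome entry, had 1.16 and 0.85, against 0.68 and 1.07. A minus B was thus lower on both low arrays than on both high arrays for RPS27, and higher for RPS28 and RPS25. RPS0, for a protein that joins head and body, had -0.85 and -0.59, against -0.44 and -1.15. RPS10 had 0.15 and 0.94, against 1.00 and -0.09. Both were lower on the low arrays, like RPS27. RPS16, for a head protein that reaches towards the peptidyl tRNA, had 0.35 and -0.41, against -0.01 and 0.05. RPS29, for a zinc-binding head protein, had the narrowest range of all 21 pairs, 0.13, with -0.64 and -0.77, against -0.76 and -0.66. The pairs RPS18, RPS23 and RPS24 had ranges of 0.70, 0.55 and 0.46.

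**Figure D4:**
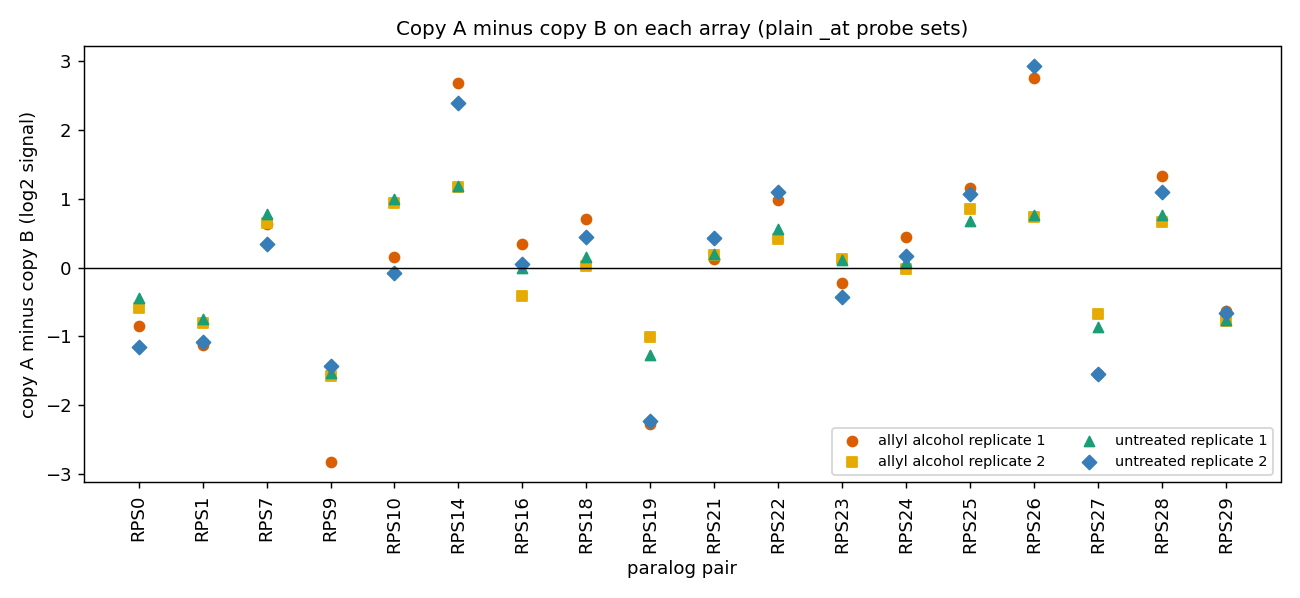
Copy A minus copy B (log2 signal, vertical axis) for 18 of the 21 pairs (horizontal axis), with the brightest plain probe set of each copy and 1 point for each array. The points of RPS26 and RPS14 split into 2 arrays above and 2 below, and in RPS9 the point of allyl alcohol replicate 1 lies alone at -2.83.

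Which probe set stood for a gene changed what its pair showed. On this array type, a set ending in _s_at has probes that match several transcripts of a family, and a set ending in _x_at has some probes that match other sequences. Of the 65 member probe sets 49 were plain, 10 were _s_at and 6 were _x_at. The brightest set was plain in 40 genes, _s_at in 9 and _x_at in 3. In the 13 genes with 2 sets, the shared type gave the smaller difference between arrays in both labels in 9. RPS23A, for a protein of the decoding centre, had a replicate 1 minus replicate 2 difference of -0.61 in allyl alcohol and 0.98 in untreated samples by its _s_at set, and of -1.86 and 2.52 by its plain set. RPS18B had -1.07 and 1.63 by its _s_at set, and -2.26 and 2.43 by its plain set. RPS23A and RPS18B were chosen after their values were seen. RPS19B and RPS24A went the other way in allyl alcohol. RPS19B had -1.42 by its _s_at set and -1.30 by its plain set, and RPS24A had -1.49 and -1.25. Some of the 9 gaps were small: RPS29A had -0.52 and 0.86 by its _x_at set, and -0.52 and 0.88 by its plain set.

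The choice of set moved the ratio of copies in either direction. The range of A minus B over the arrays was 1.09 for RPS23 with the brightest sets and 0.55 with plain sets. It was 0.54 and 0.70 for RPS18, and 1.15 and 1.27 for RPS19, which were wider with plain sets. The 3 members RPS4B, RPS6B and RPS30A had an _s_at set alone, and their signal may hold that of the copy without a set of its own.

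**Figure D5:**
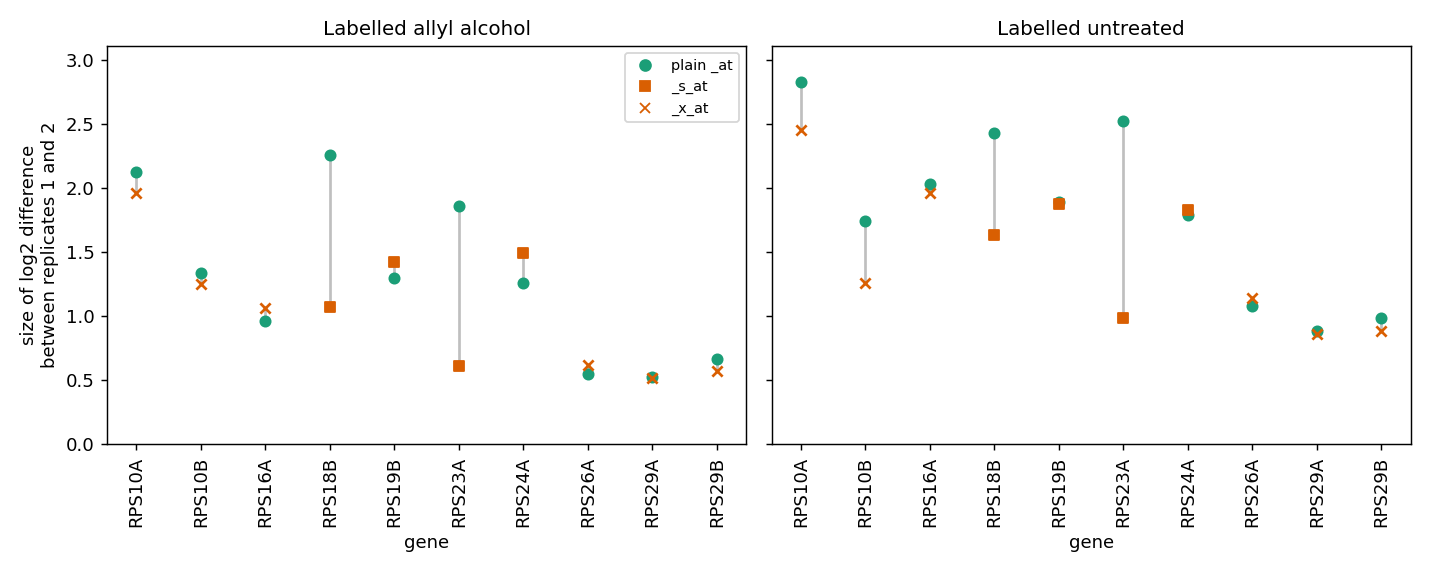
Size of the log2 difference between replicates 1 and 2 (vertical axis, from 0) in allyl alcohol (left) and untreated samples (right) for 10 of the 13 genes with 2 probe sets, with plain sets as circles, _s_at sets as squares and _x_at sets as crosses. The squares of RPS18B and RPS23A lie below the circles in both labels, while those of RPS19B and RPS24A lie above them in allyl alcohol.

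Large-subunit protein genes had nearly the same values. The 70 measured had a median difference of 0.21 between labels, and 65 were positive, beside 42% of all genes. The small-subunit median minus the large-subunit median was -0.02. Inside the labels they had medians of -1.35 in allyl alcohol and 1.82 in untreated samples. At least 2-fold apart in both were 47 of 70, beside 15.8% of all genes. The 30 mitochondrial small-subunit protein genes did not share the pattern, with -0.06 between labels and 0.08 and -0.04 inside them. None of these was at least 2-fold apart in the members' direction in both labels, beside 15.8% of all genes. In the opposite order 2 were, beside 18.6%.

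Among the regulators of the ribosomal protein genes, in limma 0 of 13 passed the test in either direction, and their median difference between labels was 0.05. Inside the labels 2 of the 13 were at least 2-fold apart in both like the members, and 2 in the opposite order. Over all genes the shares were 15.8% and 18.6%, so these counts lie near the background. RAP1, the activator at these promoters, had 8.65 and 10.25 in allyl alcohol, against 10.29 and 8.73 in untreated samples, and was thus low on the same arrays as its targets (replicates 1 and 2 in both). IFH1, the coactivator whose release is known to switch the genes off, had 9.28 and 9.60, against 9.26 and 9.42. FHL1, the factor that Ifh1 binds, had 8.02 and 8.34, against 8.24 and 7.90. SFP1, an activator controlled by its place in the cell, had 11.70 and 11.10, against 10.93 and 11.87.

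Of 18 escorts and assembly factors of the 40S subunit 0 passed the test in either direction, with a median difference of 0.05. Inside the labels 3 were at least 2-fold apart in both like the members, and 3 in the opposite order, again near the shares over all genes. YAR1, the escort of the RPS3 product, had 12.63 and 11.30 in allyl alcohol, against 10.92 and 12.48 in untreated samples, which is the reverse of RPS3 (replicates 1 and 2 in both). TSR2, the escort of the RPS26 product, had 10.14 and 10.76, against 10.47 and 10.29. TSR4, the escort of the RPS2 product, had 9.75 and 10.56, against 10.42 and 10.12. FAP7, which acts on the RPS14 product during assembly, had 11.09 and 10.95, against 10.69 and 11.30.

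The other ubiquitin genes split. RPL40A, a ubiquitin fusion like RPS31, had 13.59 and 13.97 in allyl alcohol, against 14.06 and 13.26 in untreated samples, and its copy RPL40B had 11.02 and 13.12, against 13.36 and 10.63 (replicates 1 and 2 in both). UBI4, the stress-induced polyubiquitin gene, had 13.88 and 13.39, against 13.57 and 14.03, and so was higher on the arrays where the fusions were lower. Factors bound to the ribosome had the members' order by sign. All 6 were lower on allyl alcohol replicate 1 than on replicate 2, beside 2727 of 5449 genes. All were higher on untreated replicate 1 than on replicate 2, beside 2655 of 5449. At least 2-fold apart in both were 2 of the 6, beside 15.8% of all genes. Between labels 3 of them had a positive difference and 3 a negative one. ASC1, a scaffold protein of the head, had 13.40 and 14.17, against 14.12 and 12.98. None of these 9 genes passed the test between labels.

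Genes next to the members on the chromosome had values near those of all genes. In the gene order of the RefSeq table, assembly R64, 8 members lie next to another cytosolic ribosomal protein gene, among them RPS14B and RPS22A, which adjoin each other. The 78 measured neighbours that are not ribosomal protein genes had medians of -0.10 in allyl alcohol and 0.06 in untreated samples for replicate 1 minus replicate 2. Of these 78, 14 were at least 2-fold apart in the members' direction in both labels, near the 15.8% of all genes.

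Control probe sets also differed between arrays of the same label. The 12 poly-A controls had median differences, replicate 1 minus replicate 2, of 1.14 in allyl alcohol and -0.92 in untreated samples, opposite to the members. The 9 hybridisation controls had 0.17 and -0.19. The 18S rRNA sets had -0.27 and 0.67, and the 25S rRNA sets 0.69 and -0.11. For ACT1, the probe set at the 3' end read 0.18 to 0.27 log2 units above the set at the 5' end, a check for degraded RNA. The part of these controls in the members' differences was not tested.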

How the data were processed

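Total RNA of 4 yeast cultures was hybridised to Affymetrix arrays. The deposited values are log2 signals, 1 per probe set and array. Per the submitters' processing notes, the authors used RMA and Affymetrix Expression Console. Versions and settings: not given in the sources used. RMA quantile normalizes the arrays together, so a broad change in mRNA is partly removed. The table held 10928 probe sets, named through GEO's platform annotation and the RefSeq gene table of assembly R64, which gave 5498 sets of 5449 genes. The set with the highest mean stood for a gene. Background was the 95th percentile of the 1746 sets named outside the S. cerevisiae table, between 5.28 and 5.64 by array. Groups follow the labels. Limma 3.58.1 under R 4.3.3 (lmFit and eBayes, no block, two-sided) tested all genes, with Benjamini-Hochberg adjustment at 0.05. It was also run on simulated data with less spread than these arrays. That run therefore does not show what size of change could be found here. The number of arrays limits the precision, and p-values measure the spread between these arrays.

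Replicate numbers gave no pairing, since arrays with 1 number deviated from their groups in opposite ways (r = -0.973 over genes). The members and gene lists were chosen with earlier results of these data known. Arrays were compared singly too, as differences of log2 signal. Values on each array are given for the 3 largest differences in each direction between labels, members without overlap (0), the 3 largest and 3 smallest differences inside labels, the 3 most and 3 least variable pairs with plain probe sets, and RPS3, RPS31 and both copies of RPS14, RPS22 and RPS26. Some members are not reported here. Other lists give up to 4 genes in list order. Alternatives left out each array, blocked on replicate, changed the probe set, left out dim genes, renormalized, recentred or used an intensity trend.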

Additional observations from a re-analysis of the deposited data

How the results depend on the processing

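The crossed block joined allyl alcohol replicate 1 with untreated replicate 2, and allyl alcohol replicate 2 with untreated replicate 1. It was chosen after seeing the data. Limma called 0 genes and 0 members under every setting run, with the replicate number as a block too, and 0 members had groups that did not overlap under the 5 settings of probe set, filter and scaling. With the crossed replicate block, 188 genes (3.45% of all tested) and 1 member had an unadjusted p under 0.05 in limma. The smallest adjusted p was 0.939. In the fit without a block, 0 of each had an unadjusted p under 0.05. The members' median difference between labels stayed between 0.20 and 0.22 under other probe sets, filters and scalings, but ran from -0.62 to 1.01 when 1 array was left out: 0.78 without allyl alcohol replicate 1, -0.38 without allyl alcohol replicate 2, 1.01 without untreated replicate 1 and -0.62 without untreated replicate 2. Its distance from the large-subunit median ran from -0.15 to 0.063. Left-out arrays also turned the sign of single members, by the arithmetic of removing a high or a low array. Their ranges were -0.20 to 1.06 (RPS10B), -0.18 to 0.50 (RPS14A), -0.92 to 0.96 (RPS14B), -1.24 to 1.60 (RPS19A), -1.17 to 1.46 (RPS1A), -0.96 to 1.35 (RPS1B), -0.28 to 0.58 (RPS21A), -0.23 to 0.86 (RPS21B), -0.77 to 0.88 (RPS22A), -0.92 to 1.28 (RPS22B), -0.20 to 0.87 (RPS26A), -1.19 to 2.06 (RPS26B), -0.27 to 0.084 (RPS27B), -0.30 to 0.93 (RPS3), -0.16 to 0.44 (RPS31), -1.03 to 1.70 (RPS7A), -0.90 to 1.41 (RPS7B), -1.73 to 1.04 (RPS9A) and -0.70 to 1.46 (RPS9B). RPS30A stayed negative, from -0.22 to -0.02. A left-out array leaves its group with 1 array, which the fit assumes to vary like the other group.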
